A study of Homo sapiens with 6 samples.

Results

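The replication-dependent histone genes are the short, mostly intronless genes that supply linker histone H1 and the core histones H2A, H2B, H3 and H4 while DNA is copied. Their members were taken by name: every row of the deposited gene table whose identifier maps to H1-1 to H1-6, or to H2AC, H2BC, H3C or H4C followed by digits alone. This gave 65 genes of the 58336 in the table, made up of 6 H1, 15 H2A, 18 H2B, 11 H3 and 15 H4 genes. Another 4 symbols of the same naming scheme, H2AC18, H2AC19, H3C2 and H3C3, were not matched by identifier and are given separately from rows at their positions.

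The RNA came from A2780, a human ovarian cancer cell line, treated with DMSO vehicle (3 libraries, replicates A, B and C, with no duration in their titles) or for 48 h with 6 µM TH588, a first-generation inhibitor of the nucleotide-pool hydrolase MTH1 (3 libraries, replicates A, B and C). Both groups are the same line, which was grown with insulin and serum, so the data describe 1 line at 1 dose and 1 time of TH588. The study's question for these libraries was how A2780 transcripts respond to an MTH1 inhibitor.

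Most mRNAs carry a poly(A) tail, but replication-dependent histone mRNAs end just after a conserved stem-loop in the 3′ untranslated region. The stem-loop-binding protein SLBP holds that loop through processing, export and translation, and the U7 small nuclear ribonucleoprotein guides the cut that forms the 3′ end. Transcription is driven in S phase by NPAT in histone locus bodies under cyclin E and CDK2, and the mRNAs are degraded when DNA synthesis stops. The libraries here were labelled poly(A) RNA, so the level of each histone gene is the level captured by that preparation.

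The stem-loop is the feature that sets these transcripts apart, and it was found in the genome (GRCh38) between 22 and 62 bases after the stop codon of all 65 members. It took 10 forms. The most frequent was present in 36 members, and the 15 H4 genes used 3 forms that no member of another class had. The forms below, from 8 of the most abundant members or those that differ in sequence or response, are shown with 5 flanking bases on either side in lower case and the 16 bases of the stem-loop in capitals, written as DNA on the sense strand, 5′ to 3′.
H1-2: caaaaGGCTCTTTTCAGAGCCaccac
H2AC11: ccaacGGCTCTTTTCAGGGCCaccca
H2AC20: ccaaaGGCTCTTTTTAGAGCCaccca
H2BC18: ccaaaGGCTCTTTTCAGAGCCacttc
H2BC12: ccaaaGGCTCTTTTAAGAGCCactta
H3C7: ccaaaGGCTCTTTTCAGAGCCaccaa
H4C5: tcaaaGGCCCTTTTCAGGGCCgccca
H4C16: caaaaGGCCCTTTTCAGGGCCcccaa
The gene models used for counting did not treat this end alike. The model stopped before the stem-loop in 33 members, stopped in it or within 100 bases after it in 7, and ran more than 100 bases past it in 25.

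The members lay in 4 places on GRCh38. Chromosome 6 held 53 of them between positions 25726132 and 27893843. Chromosome 1 held 9 between 149782689 and 149887916 and a further 2, H2AC25 and H2BC26, between 228456979 and 228460470. H4C16 stood alone on chromosome 12, from 14767999 to 14771131. An H2A gene and an H2B gene faced away from each other across a shared promoter region in 11 pairs, with 218 to 330 bases between the models. A single exon made up the model of 52 members.

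Total counts ran from 28537837 to 99074175 per library, and TH588 replicate A was the shallowest. Counting depth put the floor of 3 counts between 0.0303 and 0.105 CPM (counts scaled by the TMM library size, which discounts the few genes that dominate a library), a limit that covers counting error only. The small nucleolar RNA SNORD3A took 21.94% of the counts of TH588 replicate A against 7.68% to 12.95% in the other 5 libraries, so results that rest on that library are also given without it. The epithelial markers KRT18 and EPCAM were detected, at 3.14 to 6.99 and 0.497 to 4.96 CPM, while KRT8, KRT19, CDH1 and 6 of 6 Müllerian markers (PAX8, WT1, MUC16, SOX17, EMX2 and ESR1) were at or near 0. EPCAM and KRT18 were both called higher with TH588 by the edgeR test used here, with log2 fold changes of 2.87 ± 0.22 (SE) and 0.88 ± 0.13 (SE). The summed level of 5 immune markers was 0.671 to 1.28 CPM. That of 5 fibroblast markers was 16.3 to 18.1 CPM with DMSO and 19.2 to 21.9 CPM with TH588, with no member at 0. Of these 5, 2 were called higher with TH588, where 24.2% of all genes tested were called higher. These sums and SNORD3A moved with treatment or with 1 library to different degrees, and their part in the histone results was not tested.

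Histone gene counts were lower with TH588 in all 5 classes. All members together took 1.848% of all counts in DMSO replicate A, 1.735% in B and 1.823% in C. The TH588 libraries gave them 0.696% in replicate A, 0.663% in B and 0.66% in C. The groups did not overlap, and each group stayed within a narrow band. On the TMM library size the 65 genes summed to 18647 ± 486 CPM (SD, n = 3) in the vehicle group and 6533 ± 771 CPM (SD, n = 3) in the treated group, a ratio of 2.85. RNA of whole cultures was measured, in libraries labelled poly(A) RNA. Fewer cells in S phase, less histone mRNA in each cell and a smaller captured share of that mRNA cannot be told apart.

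The H2B genes made up most of this RNA. Their sum was 10774, 10547 and 11021 CPM with DMSO and 4580, 3379 and 3434 CPM with TH588 (replicates A, B and C in order, as throughout). The H2A genes, which encode their partners in the nucleosome dimer, summed to 3653, 3454 and 4008 CPM with DMSO and 1579, 1174 and 1266 CPM with TH588. The H3 genes summed to 1675, 1380 and 1508 CPM with DMSO and 521, 471 and 449 CPM with TH588. In these 3 classes every TH588 library lay below every DMSO library, and the lowest DMSO sum was more than 2 times the highest TH588 sum. The H4 genes, whose protein pairs with H3, summed to 1186, 1431 and 1390 CPM with DMSO and 438, 343 and 422 CPM with TH588, and both statements held for them too. The linker histone genes, whose products bind DNA between nucleosomes, summed to 1407, 1327 and 1181 CPM with DMSO and 303, 673 and 566 CPM with TH588. Their groups did not overlap either, but the lowest DMSO sum was less than 2 times the highest TH588 sum. The ratio of the group means was, in ascending order, H1 (2.54), H2A (2.77), H2B (2.84), H3 (3.17) and H4 (3.33), but differences between classes were not tested and neighbours in this order lay within or close to the spread between libraries.

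**Figure D1:**
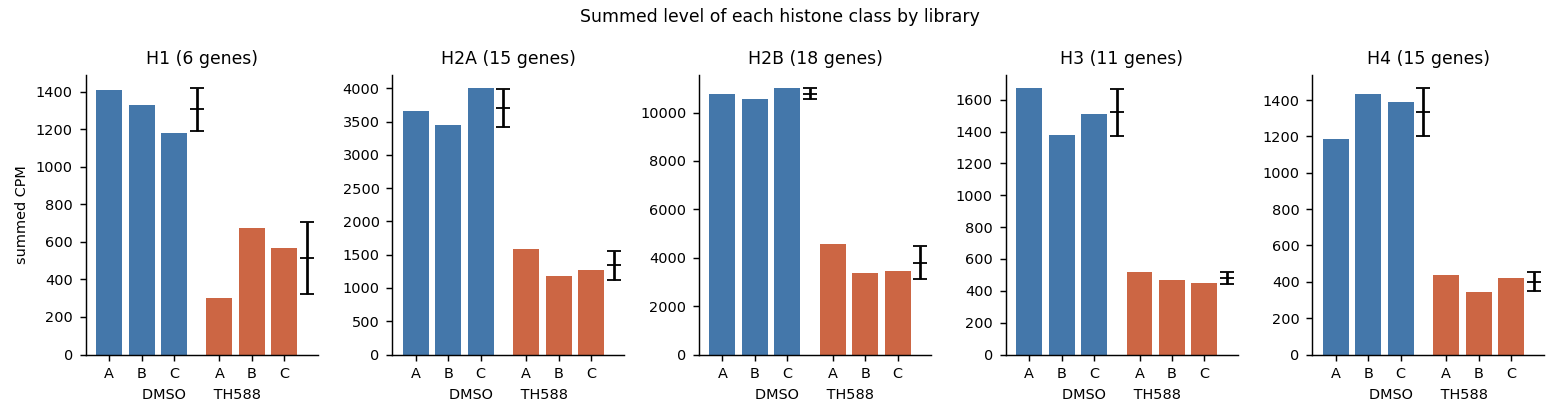
Bars give the summed CPM (TMM library size) of all genes of each histone class in each library, DMSO in blue and TH588 in orange; the black marks are the mean ± SD of the 3 libraries. Every TH588 bar is below every DMSO bar of its class, and the H1 bar of TH588 replicate A (303 CPM) is the lowest of its group while the other classes are highest there.

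The classes differed in which TH588 library was highest. Summed H2A, H2B, H3 and H4 levels were highest in TH588 replicate A, whereas the H1 sum was lowest there. The share of H1 among all member counts was 7.53%, 7.32% and 6.18% with DMSO and 4.08%, 11.1% and 9.22% with TH588. On the log2 scale the H1 sum changed by −1.42 with all libraries and by −1.08 without TH588 replicate A. That library was also the shallowest and the richest in SNORD3A, and the part of either in the H1 values was not tested.

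Each gene was then tested on its own by edgeR's quasi-likelihood method across the 15844 genes that passed its filter on low counts, 52 of the 65 histone genes among them, with Benjamini-Hochberg adjustment over all 15844. Lower levels with TH588 were called at an adjusted p under 0.05 for 48 of the 52, where 25.3% of all genes tested were called lower. Higher levels were called for 0 of 52, where 24.2% of all genes tested were called higher, and the number higher was also 0 at an unadjusted p under 0.05, with DESeq2 and with limma-voom. The median log2 fold change of the 52 was −1.65 against 0.02 over all genes tested. More than 2-fold lower and called were 43 of the 52, against 4.76% of all genes. CPM did not overlap between the groups, with TH588 lower, in 48 of the 52, against 29.0% of all genes, and 47 of these 48 were among the called genes. Left without H3C14, H3C15, H4C14 and H4C15, which are copies described on their own, 45 of 48 were called lower, with a median of −1.61. Without TH588 replicate A the test again called 48 members lower, with a median of −1.74. For 1 gene in 3 against 3 libraries, the smallest p that an exact permutation test (two-sided) can give is 0.1, so the calls rest on the fit across genes.

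By the median SD of log2 CPM, the spread between replicates was near that of other genes with DMSO and wider with TH588. The median SD of log2 CPM over the 52 was 0.107 with DMSO and 0.22 with TH588, beside 0.109 and 0.144 over all genes tested. TH588 replicate A was the highest TH588 library for 35 of the 52 genes and the lowest for 11, and the SD was not computed without it. Against counting noise, pairs of DMSO libraries gave a chi-square per degree of freedom of 321 to 410 over histone genes and 23.5 to 70.4 over all genes. Pairs of TH588 libraries gave 86.9 to 217 and 45.4 to 165. This measure also rises with the counts of a gene, and histone genes were not compared with other genes of like level.

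**Figure D2:**
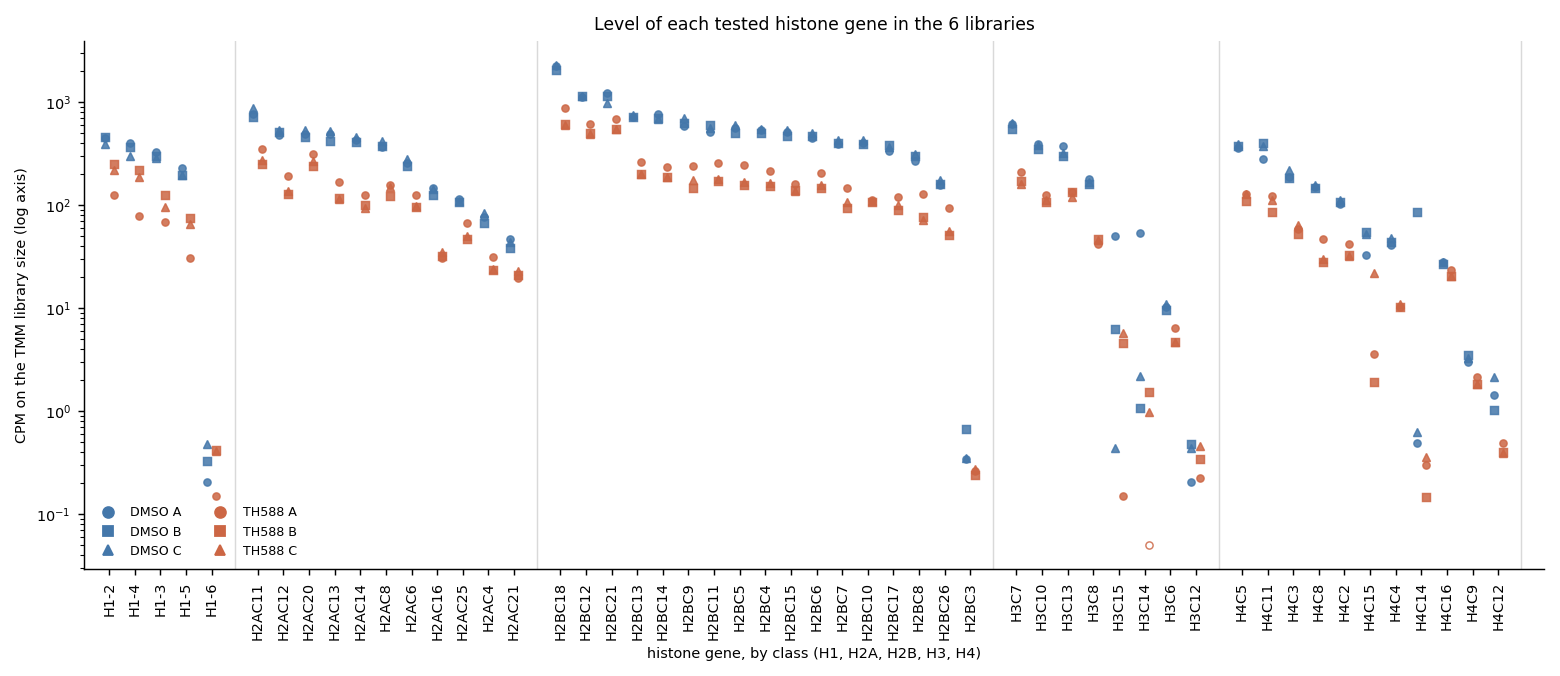
Each point is the CPM (TMM library size, log axis) of 1 of the 52 tested histone genes in 1 library, ordered within each class by the DMSO mean; blue is DMSO, orange TH588, and the shape gives the replicate. Levels span H2BC18 at 2041 to 2300.2 CPM with DMSO down to genes under 1 CPM, and an open symbol drawn at 0.05 marks the single value of 0, H3C14 in TH588 replicate A.

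The H2B class held the most abundant members by count. H2BC18 (ENSG00000203814, chromosome 1, 149782689 to 149812373) stood at 2229, 2041 and 2300 CPM with DMSO and 869, 613 and 595 CPM with TH588. H2BC12 (ENSG00000197903, chromosome 6, 27146418 to 27146798) stood at 1129, 1140 and 1154 CPM with DMSO and 607, 497 and 489 CPM with TH588. H2BC21, also on chromosome 1, stood at 1218, 1137 and 989.5 CPM with DMSO and 691, 545 and 542 CPM with TH588. All 3 fell without overlap between groups, H2BC18 by a log2 fold change of −1.66 ± 0.13 (SE) with an adjusted p of 1.1e-06 from the edgeR test, and H2BC12 and H2BC21 by smaller ones of −1.10 ± 0.09 (SE) and −0.91 ± 0.11 (SE). H2BC13 was counted at 722, 714 and 751 CPM with DMSO and 259, 201 and 199.8 CPM with TH588. H2BC14 was counted at 758, 707 and 683 CPM with DMSO and 236, 186 and 188 CPM with TH588. H2BC9 was counted at 584, 629.9 and 706 CPM with DMSO and 241, 147 and 174 CPM with TH588. These 3 fell together, with log2 fold changes of −1.82 to −1.73. H2BC11 had 517, 594 and 555 CPM with DMSO and 253, 173 and 180.3 CPM with TH588. H2BC5 had 561, 497 and 599.7 CPM with DMSO and 243, 158 and 168 CPM with TH588. H2BC4 had 531, 505 and 551 CPM with DMSO and 215, 153 and 163 CPM with TH588. TH588 replicate A was the highest of its group in each, and the log2 fold changes were −1.58 to −1.46.

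H2BC15 measured 514, 472 and 529.7 CPM with DMSO and 162, 140.4 and 136 CPM with TH588. H2BC6 measured 452, 471 and 496 CPM with DMSO and 204, 147 and 155 CPM with TH588. H2BC7 measured 396, 405 and 425 CPM with DMSO and 145, 94.6 and 106 CPM with TH588. The DMSO libraries of these 3 lay well above the TH588 libraries, and the log2 fold changes were −1.83 to −1.49. Parts of the H2BC15 and H2BC6 models are overlapped on the opposite strand, that of H2BC15 by H2AC15, and the strand setting of the counting is not given in the sources used here, so reads there cannot be told apart from the partner's. H2BC10 reached 404, 394 and 425 CPM with DMSO and 113, 108 and 109 CPM with TH588. H2BC17 reached 337, 379 and 369 CPM with DMSO and 119.9, 89.4 and 101 CPM with TH588. H2BC8 reached 267, 299.8 and 311 CPM with DMSO and 129, 76.2 and 71.5 CPM with TH588. H2BC10 was the tightest of the class with TH588 and fell the most with a log2 fold change of −1.89 ± 0.08 (SE), with −1.81 for H2BC17 and −1.67 for H2BC8. H2BC26, apart from the large clusters on chromosome 1, gave 155, 161 and 176 CPM with DMSO and 93.9, 50.7 and 55.6 CPM with TH588, and its log2 fold change was −1.31 ± 0.18 (SE). H2BC3 was barely detected, at 0.341, 0.666 and 0.352 CPM with DMSO and 0.262, 0.239 and 0.276 CPM with TH588, with a log2 fold change of −0.81 ± 0.41 (SE) and an adjusted p of 0.13 from the edgeR test that did not pass, although the groups did not overlap. In all, 16 of 17 tested H2B genes fell, with a class median of −1.66.

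Of the H2A genes, 11 of the 11 tested fell, with a median log2 fold change of −1.43. H2AC11 stood at 768, 715 and 877 CPM with DMSO and 353, 248 and 273 CPM with TH588. H2AC12 stood at 474, 508 and 534 CPM with DMSO and 189.9, 128 and 138 CPM with TH588. H2AC20 stood at 489.95, 454 and 532 CPM with DMSO and 311, 238 and 267 CPM with TH588. H2AC20 fell least of the 11, with a log2 fold change of −0.85 ± 0.10 (SE) against −1.43 for H2AC11 and −1.74 for H2AC12, and its share of H2A counts was 13.1% to 13.4% with DMSO and 19.7% to 21.1% with TH588. H2AC13 was counted at 485, 416 and 526 CPM with DMSO and 168, 116 and 115 CPM with TH588. H2AC14 was counted at 427, 410.3 and 462 CPM with DMSO and 126, 101 and 93.9 CPM with TH588. H2AC8 was counted at 366, 374 and 415 CPM with DMSO and 157, 123 and 149 CPM with TH588. H2AC13 and H2AC14 have coding sequences that are 96.7% identical, so reads could be divided between them, and both fell by close amounts, −1.84 ± 0.14 (SE) and −2.02 ± 0.11 (SE) on the log2 scale. H2AC8 fell by less, −1.43. H2AC6 gave 258, 240.1 and 280.2 CPM with DMSO and 126, 95.99 and 97.2 CPM with TH588. H2AC16 gave 145, 125 and 144 CPM with DMSO and 30.8, 32.3 and 35.2 CPM with TH588. H2AC25 gave 115, 107 and 109 CPM with DMSO and 66.4, 46.7 and 50.01 CPM with TH588. H2AC16 fell the most in the class, with a log2 fold change of −2.07 ± 0.09 (SE) with an adjusted p of 1.9e-08 from the edgeR test, and H2AC25, the H2A gene of the small chromosome 1 cluster, fell with a log2 fold change of −1.03. H2AC4 and H2AC21 were less abundant. H2AC4 measured 77.3, 66.6 and 84.4 CPM with DMSO and 31.05, 23.3 and 23.98 CPM with TH588. H2AC21 measured 46.7, 38.1 and 44.2 CPM with DMSO and 19.8, 21.01 and 22.9 CPM with TH588. Both fell without overlap of the groups, with log2 fold changes of −1.55 and −1.02.

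The 11 head-to-head pairs put an H2A and an H2B gene on the same intervening DNA, and both genes were tested in 8 of them. Their log2 fold changes differed by 0.03 to 0.63 within a pair, with a median of 0.22. H2BC11 and H2AC11 lay closest, at −1.46 and −1.43. H2BC21 and H2AC20, the pair of chromosome 1 that fell least, were at −0.91 and −0.85. H2BC12 and H2AC12 lay furthest apart, at −1.10 ± 0.09 (SE) and −1.74 ± 0.13 (SE). The differences within pairs were not tested.

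The H3 genes encode 2 proteins among the 11 members, so the genes differ far more in RNA than in product. H3C7 stood at 618, 548 and 623 CPM with DMSO and 211, 169.7 and 159 CPM with TH588. H3C10 stood at 387, 353 and 382 CPM with DMSO and 126, 108 and 113 CPM with TH588. H3C13, of chromosome 1, stood at 375, 301 and 322 CPM with DMSO and 135, 135 and 120.3 CPM with TH588. The 3 fell without overlap, H3C7 and H3C10 with −1.73 and −1.69 and H3C13 with −1.35. H3C8 was counted at 180.3, 160.2 and 167 CPM with DMSO and 41.9, 46.7 and 45.5 CPM with TH588. H3C6 was far lower, at 10.2, 9.67 and 11.1 CPM with DMSO and 6.39, 4.72 and 4.68 CPM with TH588. Both fell, H3C8 with −1.92 ± 0.08 (SE) and H3C6 with −0.99 ± 0.14 (SE) on the log2 scale. H3C12 stayed under 1 CPM, at 0.207, 0.485 and 0.438 CPM with DMSO and 0.224, 0.34 and 0.455 CPM with TH588, and its log2 fold change of −0.09 ± 0.43 (SE) had an adjusted p of 0.89 from the edgeR test. Another gene, H2AC17, overlaps 45% of the H3C12 model on the table's coordinates. In all, 6 of 8 tested H3 genes fell, with a median of −1.71, and both genes of the identical pair H3C14 and H3C15 are described with the other identical copies.

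All 11 tested H4 genes fell, with a median log2 fold change of −1.76. H4C5 stood at 358, 375 and 394 CPM with DMSO and 127, 109 and 129 CPM with TH588. H4C3 stood at 187, 185 and 219.98 CPM with DMSO and 59.03, 52.5 and 63.4 CPM with TH588. H4C8 stood at 151, 146 and 157 CPM with DMSO and 47.04, 27.99 and 29.7 CPM with TH588. H4C8 fell with a log2 fold change of −2.13 ± 0.16 (SE) with an adjusted p of 6.9e-07 from the edgeR test, and H4C5 and H4C3 with −1.63 and −1.76. H4C2 was counted at 102, 107 and 111 CPM with DMSO and 41.6, 32.5 and 32.2 CPM with TH588. H4C4 was counted at 41.2, 43.5 and 47.98 CPM with DMSO and 10.3, 10.3 and 11 CPM with TH588. H4C9 was counted at 3.02, 3.54 and 3.29 CPM with DMSO and 2.17, 1.84 and 1.82 CPM with TH588. H4C4 fell by an amount close to that of H4C8, −2.07 ± 0.09 (SE), while H4C9, at a few CPM, fell with a log2 fold change of −0.77 ± 0.16 (SE). H4C16 gave 27.8, 26.9 and 28.1 CPM with DMSO and 23.6, 20.5 and 20.5 CPM with TH588. Its groups did not overlap, but the fall was the smallest of the 48, at −0.36 ± 0.09 (SE) with an adjusted p of 0.0055 from the edgeR test. H4C16 is also the one member that lies in neither the chromosome 6 nor the chromosome 1 groups.

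The H1 genes encode 6 different linker histones, which makes this the class whose members differ most in sequence. H1-2 stood at 451, 461 and 395 CPM with DMSO and 125, 250.01 and 217 CPM with TH588. H1-4 stood at 402, 367 and 302 CPM with DMSO and 78.1, 221 and 186 CPM with TH588. H1-3 stood at 325, 303 and 287 CPM with DMSO and 68.6, 127 and 96.1 CPM with TH588. In each, TH588 replicate A was the lowest library, and the groups did not overlap. H1-5 stood at 228, 196 and 195 CPM with DMSO and 30.7, 74.6 and 65.5 CPM with TH588, and its TH588 replicate A value was again the lowest. H1-5 fell with a log2 fold change of −1.84 ± 0.24 (SE) with an adjusted p of 4.4e-05 from the edgeR test, H1-3 with −1.65 ± 0.17 (SE), and H1-2 and H1-4 with −1.14 ± 0.19 (SE) and −1.14 ± 0.27 (SE). The share of H1-5 among H1 counts was 14.7% to 16.5% with DMSO and 10.1% to 11.6% with TH588, and that of H1-2 was 32.1% to 34.7% and 37.1% to 41.4%. H1-6, the testis linker histone, was under 0.5 CPM, at 0.207, 0.327 and 0.48 CPM with DMSO and 0.149, 0.423 and 0.407 CPM with TH588, with a log2 fold change of 0.05 ± 0.45 (SE) and an adjusted p of 0.94 from the edgeR test.

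**Figure D3:**
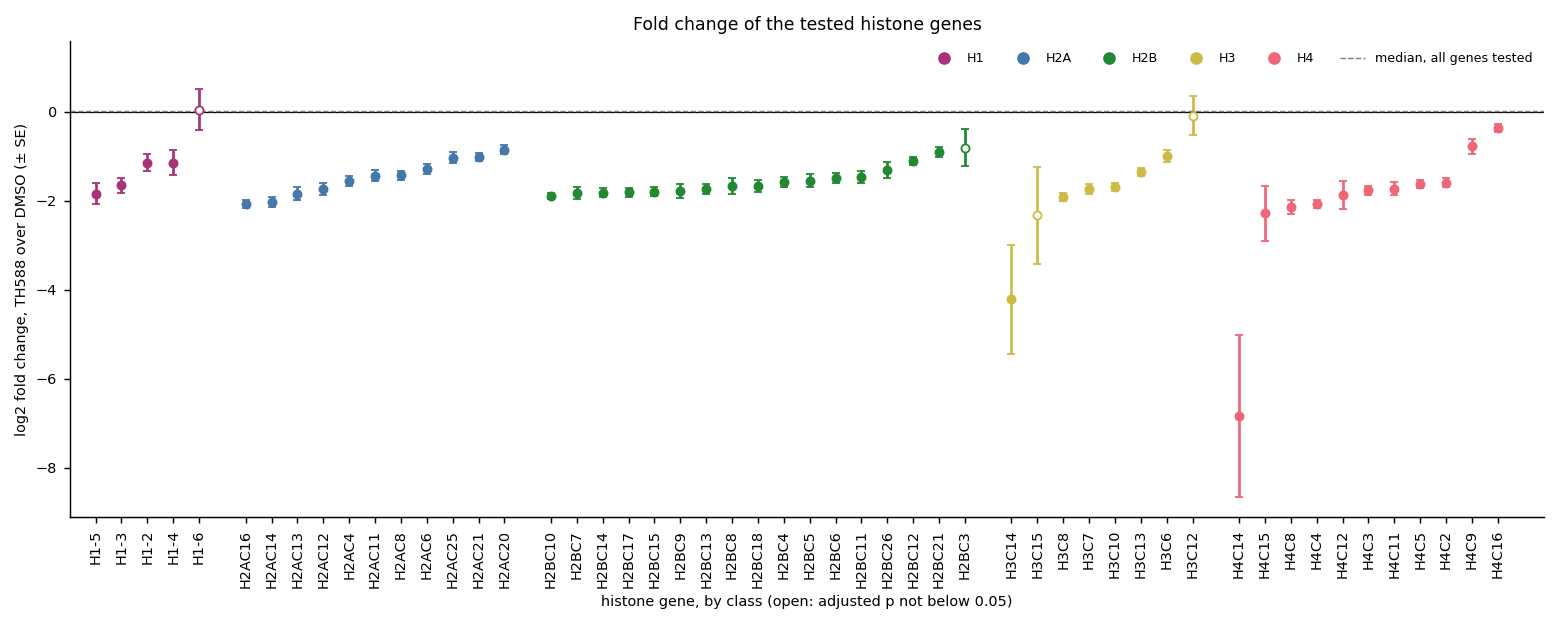
Points give the log2 fold change (TH588 over DMSO) and bars its SE from edgeR's quasi-likelihood test for the 52 tested histone genes, by class; filled points have an adjusted p under 0.05, and the dashed line is the median of all genes tested (0.02). Most genes lie between −1 and −2.1, H4C16 lies nearest 0 among the filled points, and the widest bars belong to H3C14, H3C15 and H4C14.

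Per kilobase of gene model, H2BC12 had the highest level of all members, with a DMSO mean of 2994 CPM per kilobase and a TH588 mean of 1393. H2BC14 followed with 1878 and 533 CPM per kilobase, and H2BC13 with 1494 and 451. H3C7 was the highest H3 gene, at 1452 and 437 CPM per kilobase, and H2AC12 the highest H2A gene with DMSO, at 1306 and 392. H2BC18, first by CPM, came to 685 and 217 CPM per kilobase, because its model spans 3196 bases of exon while that of H2BC12 spans 381. Models that run past the stem-loop and models cut to the coding region thus give levels on unlike footings. The median over tested members was −1.73 where the model ended before the stem-loop (20 genes), −1.59 where it ended in or near it (7 genes) and −1.63 where it ran on (25 genes).

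The remaining 13 members did not pass the filter, and none had more than 14 counts in any library. They were H1-1, H2AC1, H2AC7, H2AC15, H2AC17, H2BC1, H3C1, H3C4, H3C11, H4C1, H4C6, H4C7 and H4C13. H1-1, the most counted of them, had 2, 6 and 6 counts with DMSO and 5, 14 and 4 with TH588. H2AC17 had 2, 0 and 12 counts with DMSO and 2, 3 and 3 with TH588, and H3C1 had 8, 1 and 1 against 1, 5 and 3. H2AC1, H2AC15 and H3C4 were at 0 in every library. A count of 0 allows up to 3 counts, a limit that covers counting error only. The models of H3C4, H2AC7, H2AC15 and H2AC17 are overlapped by those of other genes along at least 88% of their length, and H2AC1 and H2BC1 are testis histones. The 13 members were not tested for a difference between the groups. How reads in the overlapped stretches were counted is not given in the sources used here, so low counts there cannot be read as low RNA.

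Identical copies on chromosome 1 gave the least steady rows. How reads that match both copies of a pair were counted is not given in the sources used here. H3C14 and H3C15, on chromosome 1, have coding sequences that are 100% identical, and their counts changed by library as well as by group. Each also overlaps an H4 gene, H4C14 or H4C15, on the opposite strand along 10.4% of its model. H3C14 was counted at 53.02, 1.08 and 2.21 CPM with DMSO and 0, 1.53 and 0.971 CPM with TH588. H3C15 was counted at 50.5, 6.22 and 0.438 CPM with DMSO and 0.149, 4.54 and 5.72 CPM with TH588. DMSO replicate A alone was high in both, so the groups overlapped in each gene. The edgeR test called H3C14 lower, with a log2 fold change of −4.21 ± 1.22 (SE) and an adjusted p of 0.012, and did not call H3C15, with −2.32 ± 1.09 (SE) and an adjusted p of 0.098. The H3C14 call was lost without DMSO replicate A, at −0.79 with an adjusted p of 0.33, without TH588 replicate C, at −4.17 with 0.058, and with limma-voom, at −2.97 with 0.33. Their sum was 103, 7.30 and 2.65 CPM with DMSO and 0.149, 6.07 and 6.69 CPM with TH588. In the fit where the sum replaced both rows, the log2 fold change was −2.99 ± 1.07 (SE) with an adjusted p of 0.035 from the edgeR test, but it was −0.12 with an adjusted p of 0.90 without DMSO replicate A. With H3C13, which encodes the same protein and is 97.1% identical in coding sequence, the sum was 478, 308 and 325 CPM with DMSO and 135, 141 and 127 CPM with TH588, without overlap. H3C13 alone already showed no overlap and made up most of this sum in each library, so the sum says little about the pair.

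H4C14 and H4C15, also 100% identical in coding sequence, behaved likewise in another library. H4C14 was counted at 0.487, 85.5 and 0.63 CPM with DMSO and 0.299, 0.147 and 0.359 CPM with TH588. H4C15 was counted at 32.9, 54.3 and 52.1 CPM with DMSO and 3.62, 1.90 and 22.2 CPM with TH588. H4C14 was high in DMSO replicate B alone and H4C15 was lower with TH588 in each library. The sum was 33.4, 139.7 and 52.7 CPM with DMSO and 3.92, 2.05 and 22.5 CPM with TH588, with no overlap and a log2 fold change of −2.94 ± 0.72 (SE, edgeR adjusted p = 0.0047), which ran from −4.76 to −2.15 with each library left out in turn. Fitted alone, the log2 fold change of H4C14 was −6.83 ± 1.82 (SE, edgeR adjusted p = 0.0078). The call was lost without DMSO replicate B, at −1.11 with an adjusted p of 0.080, and with limma-voom, at −3.58 with 0.33. That of H4C15 was −2.28 ± 0.63 (SE, edgeR adjusted p = 0.0094).

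H4C11 and H4C12, of chromosome 6, are 100% identical in coding sequence too, but reads fell almost entirely to the first. H4C11 was counted at 281, 404 and 374 CPM with DMSO and 122, 86.4 and 112 CPM with TH588. H4C12 was counted at 1.44, 1.02 and 2.14 CPM with DMSO and 0.486, 0.404 and 0.395 CPM with TH588. Both fell without overlap, with log2 fold changes of −1.73 ± 0.15 (SE) and −1.87 ± 0.32 (SE). Their sum was 282, 405 and 376 CPM with DMSO and 123, 86.8 and 112 CPM with TH588, with a log2 fold change of −1.73 ± 0.15 (SE, edgeR adjusted p = 1.5e-06).

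The rows at the positions of the 4 unmatched symbols showed both patterns. The row at H3C2 held 345, 280.4 and 343 CPM with DMSO and 78.6, 89.8 and 88.8 CPM with TH588 and fell with a log2 fold change of −1.91 ± 0.10 (SE, edgeR adjusted p = 5.6e-08). The row at H2AC18 held 26.3, 0.994 and 77.6 CPM with DMSO and 0.224, 0.165 and 0.827 CPM with TH588. The row at H2AC19, whose coding sequence is 100% identical to that of H2AC18, held 85.2, 122 and 43.6 CPM with DMSO and 30.7, 12.3 and 18.2 CPM with TH588. The split between these rows differed from library to library with DMSO. Their sum was 112, 123 and 121 CPM with DMSO and 30.9, 12.5 and 19.02 CPM with TH588, with an SD of log2 CPM of 0.074 with DMSO. The row at H3C3 held at most 34 counts in a library and was not called (adjusted p = 0.22, edgeR). With these 4 rows counted as members, 51 genes were called lower.

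**Figure D4:**
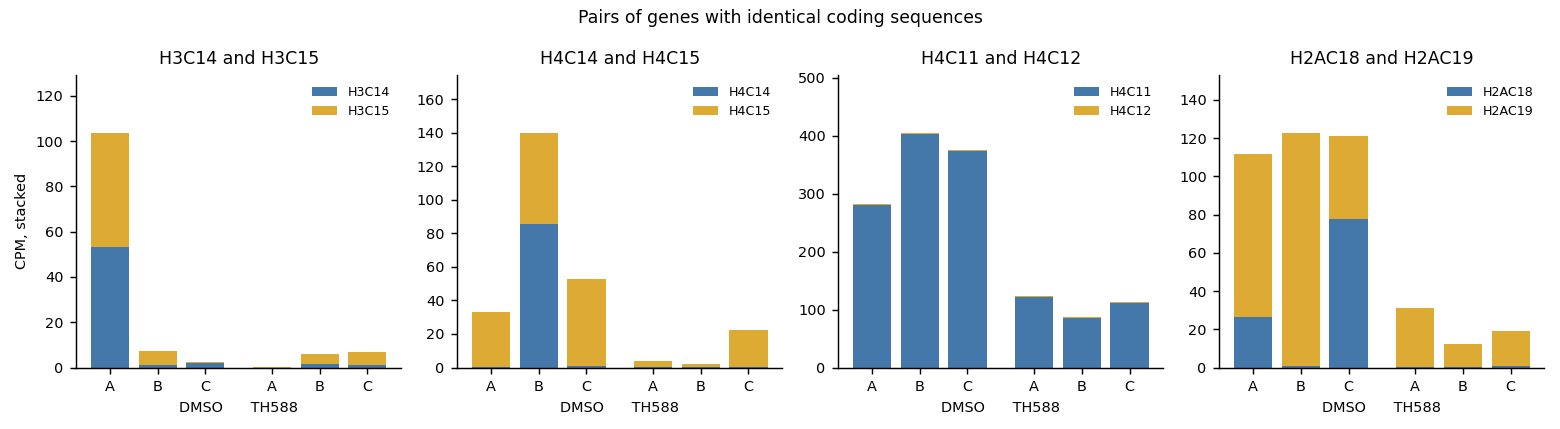
Stacked bars give the CPM (TMM library size) of both members of 4 pairs with identical coding sequences in each library, DMSO first; H2AC18 and H2AC19 are rows taken by position. DMSO replicate A carries most of the H3C14 and H3C15 signal, DMSO replicate B most of H4C14, and the H2AC18 to H2AC19 split differs between DMSO libraries whose totals stay between 112 and 123 CPM.

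Several members encode the same protein, and their levels were also summed by protein. The 14 H4 genes that encode the same protein summed to 1186, 1431 and 1390 CPM with DMSO and 438, 343 and 422 CPM with TH588. The 8 H3 genes that share a protein summed to 1196, 1072 and 1183 CPM with DMSO and 386, 329.7 and 322 CPM with TH588. The 5 H2B genes that share a protein, H2BC4, H2BC6, H2BC7, H2BC8 and H2BC10, summed to 2049, 2075 and 2208 CPM with DMSO and 805, 579 and 605 CPM with TH588. In all 3 sums the groups stood apart, with DMSO means 3.33, 3.33 and 3.18 times the TH588 means. The 5 H2A genes that share a protein, H2AC11, H2AC13, H2AC15, H2AC16 and H2AC17, summed to 1398, 1256 and 1547 CPM with DMSO and 551, 397 and 424 CPM with TH588. H2AC4 and H2AC8, which share another, summed to 443, 441 and 499 CPM with DMSO and 189, 147 and 173 CPM with TH588. The DMSO means of these H2A sums were 3.06 and 2.72 times the TH588 means.

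Promoter letters differed between the classes. The RefSeq table (GRCh38.p14) held promoters of 60 of the 65 members, each 250 bases before to 50 bases after the start. The octamer ATTTGCAT, the site of the OCT1 factor encoded by POU2F1, was found on either strand in 78.6% of H2A and 77.8% of H2B promoters, 1 of 9 H3 promoters and 0 of the H1 and H4 promoters, against 1.8% of all 27305 promoters. CCAAT was found in all H1, H2A, H2B and H3 promoters in the table and in 23.1% of H4 promoters, against 35.7% of all. TATAAA was found in 65.0% of member promoters against 11.95% of all, and 1 of the 4 E2F strings searched (TTTGGCGC, TTTCGCGC, TTTGCCGC or TTTCCCGC) in 26.7% against 3.33%. In H4C2, H4C9 and H4C13 the only E2F match lay just after the ATG, within the 50 bases past the start. It was the same string in each, so these matches are coding sequence and not upstream sequence. The H3 promoter with an octamer is the one listed for H3C4, which has the same coordinates as that of H2AC7 and starts 2043 bases from the H3C4 gene model. In all, the RefSeq start of 5 of the 60 members lay more than 150 bases from the start of the model used for counting. Members of a head-to-head pair can hold the same bases, so these shares are not independent. Below are the 250 bases before the start of H2BC12, a member with all 4 motifs, of H1-3 with CCAAT and TATAAA, of H4C5 with none of the 4, and of H4C16, the gene that fell least. The letters searched are in capitals on whichever strand they read, overlapping matches run together, and the sequences are on the gene's own strand, 5′ to 3′.
H2BC12, chr6:27146859-27147108, minus strand: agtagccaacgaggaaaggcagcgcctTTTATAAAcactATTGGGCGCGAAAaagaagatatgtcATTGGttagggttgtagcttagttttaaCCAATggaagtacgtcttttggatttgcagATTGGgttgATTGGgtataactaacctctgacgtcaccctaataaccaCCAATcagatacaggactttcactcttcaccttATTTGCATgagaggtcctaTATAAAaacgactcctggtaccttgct
H1-3, chr6:26234988-26235237, minus strand: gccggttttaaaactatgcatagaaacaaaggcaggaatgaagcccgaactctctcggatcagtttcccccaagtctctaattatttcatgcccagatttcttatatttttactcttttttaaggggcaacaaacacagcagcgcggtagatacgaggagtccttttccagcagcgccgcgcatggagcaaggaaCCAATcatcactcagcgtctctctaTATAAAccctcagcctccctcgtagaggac
H4C5, chr6:26204360-26204609, plus strand: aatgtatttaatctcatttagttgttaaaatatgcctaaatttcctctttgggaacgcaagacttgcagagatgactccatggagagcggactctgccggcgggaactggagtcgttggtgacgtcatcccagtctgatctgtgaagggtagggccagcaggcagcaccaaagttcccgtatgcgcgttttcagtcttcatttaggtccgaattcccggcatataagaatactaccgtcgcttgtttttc
H4C16, chr12:14771132-14771381, minus strand: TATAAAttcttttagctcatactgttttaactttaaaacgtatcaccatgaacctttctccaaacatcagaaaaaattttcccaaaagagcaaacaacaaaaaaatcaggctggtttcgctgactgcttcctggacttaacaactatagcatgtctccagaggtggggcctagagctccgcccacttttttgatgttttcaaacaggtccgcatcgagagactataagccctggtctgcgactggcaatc
H2A held 11 and H2B 14 of the 26 promoters with an octamer, so the fold changes are given within these classes. For tested H2A genes the median on the log2 scale was −1.43 with an octamer (8 genes) and −1.44 without it (2 genes). Tested H2B genes had −1.66 with it (13 genes) and −1.64 without it (4 genes). With an E2F string the median was −1.73 (13 genes), and without it −1.61 (36 genes). The 13 include H4C2 and H4C9, whose only match lay after the ATG. H4C5, with none of the letters, fell with a log2 fold change of −1.63, within the range of H1-3 (−1.65) and H2BC12 (−1.10). A match here is a description of the letters, not of a bound site.

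The genes that drive histone transcription fell in part. Of 8 listed genes 6 fell and 2 rose, with a median of −0.63. Over all genes tested, 25.3% were called lower and 24.2% higher. NPAT, the coactivator of the histone locus body, stood at 96.4, 101 and 100.2 CPM with DMSO and 69.4, 68.1 and 70 CPM with TH588 and fell with a log2 fold change of −0.52 ± 0.07 (SE). CASP8AP2 (FLASH), its partner in transcription and 3′ processing, stood at 48.6, 52.03 and 52.9 CPM with DMSO and 27.5, 30.6 and 34.04 CPM with TH588 and fell with a log2 fold change of −0.73 ± 0.09 (SE). CCNE2, which encodes cyclin E2, stood at 11.7, 12.6 and 12.4 CPM with DMSO and 2.84, 2.87 and 3.03 CPM with TH588. CCNE2 fell more than any other gene of the list, with a log2 fold change of −2.06 ± 0.12 (SE), followed by CCNE1 (cyclin E1) at −1.05 ± 0.09 (SE) and CDK2 at −0.86 ± 0.13 (SE), all with adjusted p-values under the threshold in the edgeR test. CCNE1 stood at 35.9, 38.98 and 37.2 CPM with DMSO and 16.7, 17.7 and 19.5 CPM with TH588. CDK2 stood at 25.6, 28.8 and 30.8 CPM with DMSO and 12.6, 16.1 and 18.02 CPM with TH588. CRAMP1 stood at 0.633, 0.909 and 0.641 CPM with DMSO and 1.20, 2.01 and 1.64 CPM with TH588, and HINFP, the H4 promoter factor, at 8.41, 9.62 and 9.02 CPM with DMSO and 14.7, 12.1 and 13.5 CPM with TH588. These 2 rose, with log2 fold changes of 1.18 ± 0.26 (SE) and 0.57 ± 0.12 (SE).

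Among the 17 genes of histone 3′ end formation, 16 were tested. Of these 11 fell, 0 rose and 5 did not pass, with a median of −0.58, against 25.3% lower and 24.2% higher over all genes tested. Here and in the chaperone and poly(A) lists, the number that rose was 0 by the edgeR test at an adjusted p under 0.05, and also at an unadjusted p under 0.05, with DESeq2 and with limma-voom. SLBP stood at 122, 120.1 and 137 CPM with DMSO and 63.9, 60.4 and 57.7 CPM with TH588, and fell with a log2 fold change of −1.06 ± 0.08 (SE, edgeR adjusted p = 1e-06). ZNF473, a U7 processing factor, stood at 31.5, 30.2 and 30.2 CPM with DMSO and 16.3, 18.2 and 16.98 CPM with TH588 and fell with a log2 fold change of −0.83 ± 0.09 (SE). SNRPF, a protein of the Sm ring, stood at 320.2, 319 and 341 CPM with DMSO and 197, 156 and 159 CPM with TH588. Its fall was −0.94 ± 0.10 (SE), and that of SNRPD3, another Sm protein, was −0.90 ± 0.08 (SE). SNRPD3 stood at 143, 152 and 156 CPM with DMSO and 83.1, 77.7 and 80.7 CPM with TH588. LSM10, a protein found in the U7 ring, stood at 12.9, 12.8 and 12.6 CPM with DMSO and 13.3, 13.1 and 10.3 CPM with TH588. LSM11, its U7 partner, stood at 1.92, 2.40 and 1.85 CPM with DMSO and 1.94, 1.59 and 2.25 CPM with TH588. These U7-specific proteins did not pass the test, with log2 fold changes of −0.06 ± 0.12 (SE) and −0.10 ± 0.20 (SE), signs that turned with library size alone, and adjusted p-values of 0.69 and 0.72 from the edgeR test. RNU7-1, the U7 RNA itself, was at 0 counts in every library and was not tested.

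Of 10 genes of histone mRNA translation and decay, 5 fell, 3 rose and 2 did not pass, with a median of −0.12. The shares called over all genes tested were 25.3% lower and 24.2% higher. MIF4GD, which links SLBP to translation initiation, stood at 10.1, 9.50 and 9.09 CPM with DMSO and 25.3, 23.3 and 20.1 CPM with TH588 and rose with a log2 fold change of 1.26 ± 0.11 (SE). ERI1, the exonuclease that trims the stem-loop end, stood at 17.5, 19.2 and 19.4 CPM with DMSO and 10.1, 8.89 and 9.83 CPM with TH588 and fell with a log2 fold change of −0.96 ± 0.11 (SE). The terminal uridylyltransferase TUT7 stood at 35.3, 33.9 and 35.5 CPM with DMSO and 58.9, 51.8 and 51 CPM with TH588. TUT7 and TUT4 both rose, with log2 fold changes of 0.62 ± 0.08 (SE) and 0.27 ± 0.07 (SE), and the TUT4 call was lost without DMSO replicate B, at an edgeR adjusted p of 0.052. TUT4 stood at 141, 135 and 143 CPM with DMSO and 167, 167 and 172 CPM with TH588. EXOSC10, a nuclear exosome nuclease, stood at 138, 129 and 139 CPM with DMSO and 85.3, 91.3 and 78.4 CPM with TH588. LSM1, of the decapping LSM ring, stood at 12.7, 11.8 and 13.3 CPM with DMSO and 8.52, 7.81 and 8.91 CPM with TH588. Both fell, with log2 fold changes of −0.67 ± 0.08 (SE) and −0.58 ± 0.11 (SE).

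Of 11 genes of the general poly(A) machinery 5 fell, 0 rose and 6 did not pass, with a median of −0.21, where 25.3% of all genes tested were called lower and 24.2% higher, and the number called ran from 3 to 7 with each library left out in turn and was 3 with library size alone. PAPOLA, a poly(A) polymerase, stood at 309, 333 and 334 CPM with DMSO and 209.7, 212 and 231 CPM with TH588. WDR33 stood at 156, 152 and 159 CPM with DMSO and 109, 111 and 105 CPM with TH588. NUDT21 stood at 101, 104 and 109 CPM with DMSO and 75.6, 75.9 and 71.7 CPM with TH588. The last pair are poly(A) signal and upstream-element binding subunits of the cleavage complexes, and the 3 fell, with log2 fold changes of −0.58 ± 0.08 (SE), −0.52 ± 0.07 (SE) and −0.49 ± 0.07 (SE). Most listed RNAs without a poly(A) tail were not counted: 12 of 18 were at 0 in every library, and 3 passed the filter. By counts this did not hold, as SNORD3A alone took 7.68% to 21.94% of each library. SNORD3A stood at 77717, 110748 and 103598 CPM with DMSO and 233977, 102028 and 120478 CPM with TH588. RN7SL2, the signal recognition particle RNA, stood at 128, 172 and 113 CPM with DMSO and 201, 106 and 168 CPM with TH588. RNU4-2 stood at 0.158, 0.182 and 0.0214 CPM with DMSO and 0.112, 0.0643 and 0.216 CPM with TH588. Only SNORD3A of the 3 passed the edgeR test, higher with TH588 at 0.64 ± 0.25 (SE, edgeR adjusted p = 0.048). That call was lost without TH588 replicate A, at 0.20 with an adjusted p of 0.24, and without DMSO replicate A, B or C, at adjusted p-values of 0.12, 0.055 and 0.064. It was also lost with DESeq2, at an adjusted p of 0.19, and with limma-voom, at 0.060. RNU4-1, next in level, was at or under 0.108 CPM.

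Of 18 histone chaperone genes 16 fell, 0 rose and 2 did not pass, with a median of −0.82, where 25.3% of all genes tested were called lower. NASP, which keeps a soluble pool of H3 and H4, stood at 602, 606 and 612 CPM with DMSO and 298, 347 and 362 CPM with TH588 and fell with a log2 fold change of −0.85 ± 0.09 (SE). SSRP1, a subunit of the FACT complex, stood at 460.3, 414 and 434 CPM with DMSO and 117, 154 and 125 CPM with TH588. HJURP, the chaperone of the centromeric histone CENP-A, stood at 76.02, 70.5 and 78.8 CPM with DMSO and 22.9, 25.5 and 24.1 CPM with TH588. MMS22L, of the complex that reads newly made H4 at forks, stood at 48.2, 51.7 and 51.99 CPM with DMSO and 17.3, 18.9 and 19.1 CPM with TH588. These 3 fell the most, with log2 fold changes of −1.72 ± 0.11 (SE), −1.63 ± 0.08 (SE) and −1.45 ± 0.08 (SE), with groups that did not overlap.

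Replacement histones, whose genes are expressed outside S phase as well, did not move as 1 group. Of 11 listed genes 10 were tested, 6 fell, 2 rose and 2 did not pass, with a median of −0.55. Over all genes tested, 25.3% were called lower and 24.2% higher. H2AJ stood at 4.26, 4.31 and 4.20 CPM with DMSO and 8.59, 8.93 and 10.5 CPM with TH588 and rose with a log2 fold change of 1.14 ± 0.12 (SE). H3-3A, 1 of the genes for H3.3, stood at 144, 173 and 147 CPM with DMSO and 184, 169 and 205 CPM with TH588, with overlapping groups, and was called higher by 0.27 ± 0.10 (SE, edgeR adjusted p = 0.038). That call was lost without DMSO replicate A, DMSO replicate C or TH588 replicate C, at edgeR adjusted p-values of 0.11, 0.12 and 0.12. H2AX, the histone phosphorylated at DNA breaks, stood at 134, 106 and 116 CPM with DMSO and 33.9, 41.6 and 35.7 CPM with TH588. H2AZ1 stood at 186, 194 and 216 CPM with DMSO and 98.3, 84.5 and 84.1 CPM with TH588. CENPA stood at 10.6, 12.1 and 9.58 CPM with DMSO and 5.01, 5.55 and 6.09 CPM with TH588. These 3 fell without overlap, with log2 fold changes of −1.67 ± 0.11 (SE), −1.16 ± 0.09 (SE) and −0.94 ± 0.13 (SE).

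**Figure D5:**
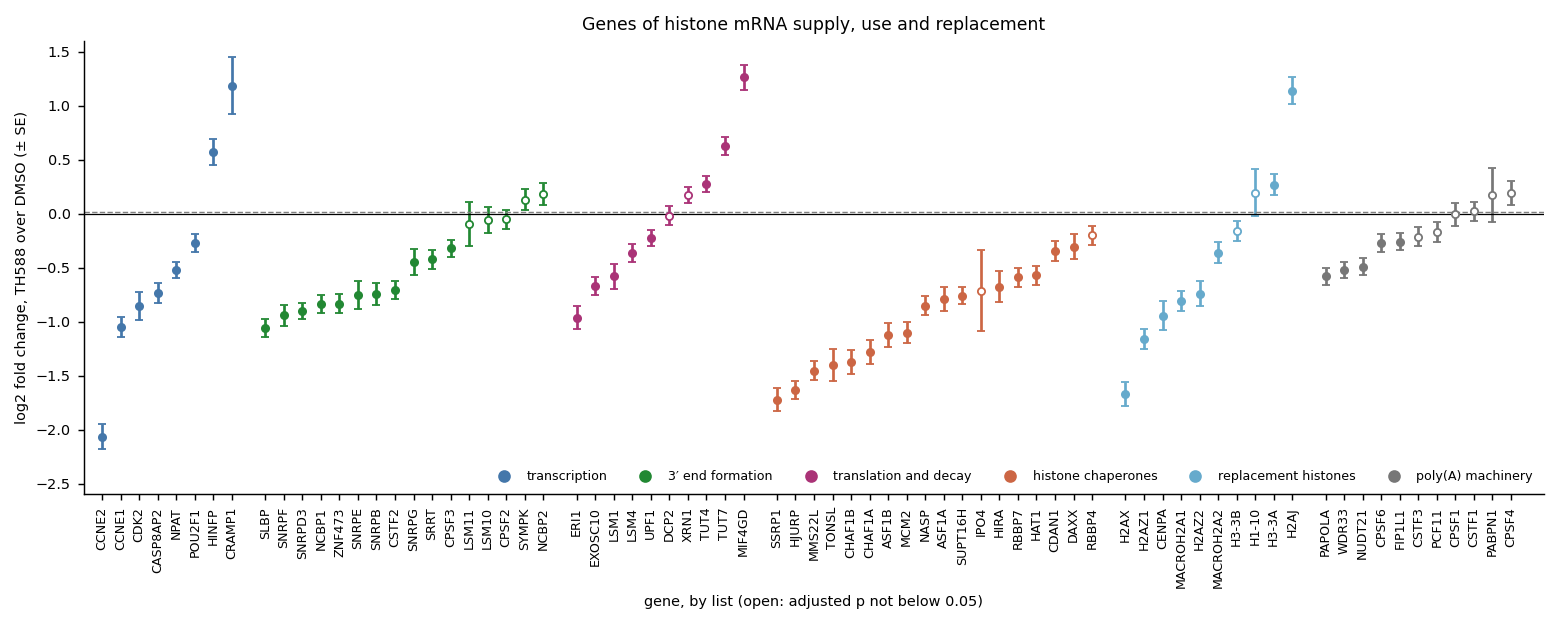
Points give the log2 fold change (TH588 over DMSO) and bars its SE from edgeR's quasi-likelihood test for the tested genes of 6 lists, in the order transcription, 3′ end formation, translation and decay, chaperones, replacement histones and poly(A) machinery; filled points have an adjusted p under 0.05 and the dashed line is the median of all genes tested. CCNE2 at −2.06 and SSRP1 at −1.72 are the lowest, and MIF4GD, CRAMP1 and H2AJ the highest.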

How the data were processed

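RNA-seq of A2780 cells was analysed in 6 libraries, 3 with DMSO and 3 with TH588. The authors extracted RNA on columns, prepared TruSeq libraries, aligned reads with TopHat to GRCh38 and counted them per gene with featureCounts 1.4.6. The values are the raw counts deposited by the authors, and the handling of strand and of reads shared by several genes is not given in the sources used here. The methods name UCSC models, while the table carries Ensembl identifiers. Identifiers were mapped to symbols with the supplied gene name table and GENCODE models.

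Counts were compared with edgeR 4.0.16 in R 4.3.3 (TMM, default filter, quasi-likelihood test, treatment as the only term, Benjamini-Hochberg adjustment). SE is the log2 fold change over the square root of F. CPM uses the TMM library size. Alternatives were DESeq2 1.42.0, limma-voom (limma 3.58.1), other scalings and filters, a replicate block and each library left out. The procedure was tested on simulated counts and called 148 of 197 genes changed by a log2 fold of 1 among 15566, and 4 unchanged ones. The simulation changed few genes, balanced up and down, and drew counts at the trended dispersion, so its error rates need not hold for these data. Members of a replicate group differed by a chi-square per degree of freedom of 23.5 to 165 over all genes, so each library counts as 1 replicate. The replicate letters were not used as pairs.

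The members and gene lists were chosen with earlier results of these data known. Named with the value in each library are all called members, the 12 most abundant others, all sums, SLBP, NPAT, CASP8AP2, LSM10, LSM11, ZNF473, ERI1, RNU7-1 and NASP, and the 3 largest rises and falls of each list. Of the replacement histones, 1 planned gene is not reported here.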

Additional observations from a re-analysis of the deposited data

How the results depend on the processing

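The number of histone genes called lower ran from 46 to 49 and the number called higher was 0 in every alternative run on the 65 members, and the median log2 fold change stayed between −1.74 and −1.54. Counting the 4 rows by position gave 51 lower, and that and leaving histone genes out of the TMM step (48 lower) were chosen after seeing the data. Scaling by library size alone moved the median of all genes from 0.02 to 0.13, that of the histone genes to −1.55, and the calls over all genes from 3839 higher and 4013 lower to 4248 and 2786. The summed levels of the 5 classes and of all members moved by less than the spread between libraries. The sum of the identical copies H3C14 and H3C15 depended on single libraries. With each library left out in turn it ran from −3.53 to −0.12 on the log2 scale and passed the threshold in 2 of those 6 fits. The sum of H4C14 and H4C15 (−4.76 to −2.15) and that of H4C11 and H4C12 (−1.87 to −1.59) passed it in all 6. The cause was not tested.

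The replicate letters did not pair the libraries (correlations of deviations −0.072, −0.085 and 0.0017), and with the replicate block 47 histone genes were lower (3492 higher and 3703 lower over all genes). The block also turned H1-6 to −0.049, and H3C14, H3-3A and SNORD3A were not called with it (edgeR adjusted p = 0.13, 0.074 and 0.081).

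The poly(A) list held 5 calls, 3 with library size alone, 3 at an adjusted p under 0.01, and 3 to 7 with a library left out. Uncalled genes that changed sign were H1-6 (−0.18 to 0.42 with a library left out), H3C15 (−2.88 to 0.19), H3C12 (−0.35 to 0.13, 0.046 with library size alone and 0.0042 with limma-voom), LSM10 (−0.12 to 0.069, 0.040 with library size alone) and LSM11 (−0.22 to 0.043, 0.016 with library size alone). Over the single genes named, 1458 of the alternative values kept direction and side of the threshold, 21 lost the call, 2 gained it and 15 changed sign. Depth limits the 13 members under the filter and TH588 replicate A most, and overlapping models may limit several of those members as well.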
